A study of Mus musculus with 43 samples.

Results

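Messenger RNA of 8 coagulation and fibrinolysis genes was followed in 4 sorted phagocyte populations of the newborn mouse lung. The genes were coagulation factors VII, X and V (F7, F10, F5), the factor XIII A chain (F13a1), thrombospondin 1 (Thbs1), urokinase (Plau), the urokinase receptor (Plaur) and plasminogen activator inhibitor 2 (Serpinb2). They were found in the deposited count table by their Ensembl gene identifiers (F7 ENSMUSG00000031443, F10 ENSMUSG00000031444, F5 ENSMUSG00000026579, F13a1 ENSMUSG00000039109, Thbs1 ENSMUSG00000040152, Plau ENSMUSG00000021822, Plaur ENSMUSG00000046223, Serpinb2 ENSMUSG00000062345) and make up 8 of its 37991 genes. The genes were chosen by their roles and by their measured levels in these same libraries, so the differences in level between populations are given as a description, with no test.

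Newborn C57BL/6 mice from 3 litters, numbered 93, 100 and 108, were kept for 1.5 days in hyperoxia (a fraction of inspired oxygen of 0.9) or in normoxia. Cells from the perfused and digested lungs were sorted into dendritic cells (DC, with high CD11c and high MHC class II), alveolar macrophages (AM, with high CD11c and high SiglecF), Ly6Chi cells (CD11c low) and Ly6Clo cells (CD11c high), the last pair being monocytes or macrophages. Each population has 5 hyperoxic libraries, 2 of litter 93, 1 of litter 100 and 2 of litter 108. It has 6 normoxic libraries, 2 of each litter, except that Ly6Clo has 5, with 1 of litter 108. No genotype or agent other than oxygen separates the groups. The labels do not say which pup a library came from, so libraries of different populations may share a pup, and p-values measure the spread between these libraries. In RNA from sorted bulk cells, fewer cells that express a gene and less RNA per cell cannot be told apart.

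Coagulation is a relay of serine proteases on cell membranes. Tissue factor binds factor VIIa, which cuts factor X, and factor Xa joined to its cofactor Va turns prothrombin into thrombin, which makes fibrin. Factor XIIIa then ties the fibrin strands together. Fibrinolysis runs the other way, with urokinase on its receptor turning plasminogen into plasmin, and plasminogen activator inhibitor 2 blocking urokinase. Hepatocytes make most of the circulating factors, while monocytes and macrophages are known to make several of them in the tissue, and fibrin in the airspaces is a known feature of lung injury.

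Library totals ran from 551960 to 2403861 counts, with 5 libraries under 1000000. Levels are given as CPM (a library share of counts, scaled to 1000000) after TMM scaling, and levels of different genes are compared only as CPM per kilobase of exon. Summed markers followed the sort labels in AM, DC and Ly6Chi. The AM list summed to 2411 to 3492 CPM in AM hyperoxia and 2319 to 2812 CPM in AM normoxia, above every library of the other populations, with 1389 to 1619.7 CPM in Ly6Clo hyperoxia and 1128 to 1961 CPM in Ly6Clo normoxia next. The DC list summed to 4285 to 5980.2 CPM in DC hyperoxia and 4334 to 6412 CPM in DC normoxia, and the classical monocyte list to 3530.0 to 5074 CPM in Ly6Chi hyperoxia and 3482 to 4909 CPM in Ly6Chi normoxia. B cell markers summed to 508 to 832 CPM in DC hyperoxia and 272 to 783 CPM in DC normoxia, and epithelial markers ran from 23.2 to 2084 CPM over the hyperoxic libraries and from 71.5 to 2781 CPM over the normoxic ones. Ly6Clo was set apart by no list fixed for it: the non-classical monocyte list had medians of 991 CPM in Ly6Clo hyperoxia and 1216 CPM in Ly6Clo normoxia, below those of Ly6Chi at 1378 CPM in hyperoxia and 1490.3 CPM in normoxia. The interstitial macrophage list was high in Ly6Clo and DC. In hyperoxia its medians were 2721 CPM in Ly6Clo, 3050.1 in DC, 1422 in Ly6Chi and 1502 in AM. In normoxia they were 2977, 2388, 1302 and 1226 CPM in the same order.

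The hyperoxic library of litter 100 (replicate 3) and, for some genes, replicate 5 of litter 108 lay apart from the other 3 hyperoxic libraries of a population. The litter 100 library had the smallest total of its group in all 4 populations. Erythroid markers in this library summed to 199, 234, 627 and 393 CPM in DC, AM, Ly6Chi and Ly6Clo, the highest of each group. The other hyperoxic libraries had at most 103 CPM. The list of 7 T and NK cell genes summed to 178, 292, 409 and 448 CPM in it in DC, AM, Ly6Chi and Ly6Clo, the highest sum of each group. Most of the AM sum was Il7r, the interleukin 7 receptor alpha chain, at 244 CPM in the litter 100 library and 232 CPM in replicate 5, against 36.7 to 39.5 CPM in the other hyperoxic AM libraries. In Ly6Clo the litter 100 library and replicate 5 had 443 and 319 CPM of Il7r, with 31.3 to 50.7 CPM in the others, and the T cell gene Cd3e had 0 and 0.546 CPM. In Ly6Chi the litter 100 library had 229 CPM of Nkg7, a cytotoxic granule gene. Markers also moved together across populations by replicate number in normoxia. Erythroid markers summed to 180.2 to 264 CPM in replicate 3, also of litter 100, in all 4 populations. Cd3e was 30.3, 5.77, 17.2 and 58.7 CPM in replicate 2 of DC, AM, Ly6Chi and Ly6Clo. This was the highest of each group except in AM, where replicate 1 had 10.2 CPM. The tests across populations treat the libraries as independent. Results that rest on the litter 100 library are given with and without it.

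F7 and F10 are neighbours on mouse chromosome 8 with no annotated gene between them, and both were high in AM and Ly6Clo and low in DC, while in Ly6Chi F10 was high and F7 low. Their log2 CPM had r = 0.38 over the 43 libraries and r = 0.48 with group means removed, given as a description. The 150 bases before the annotated start of each are shown with those of F5 and F13a1, whose levels were highest in Ly6Chi cells, and of Plaur, which was high in all populations. Sequences are from RefSeq (GRCm38.p6), 5′ to 3′ on the strand of the gene, and capitals mark a match to the AP-1 motif TGANTCA.
F7, chr8:13025884-13026033, plus strand: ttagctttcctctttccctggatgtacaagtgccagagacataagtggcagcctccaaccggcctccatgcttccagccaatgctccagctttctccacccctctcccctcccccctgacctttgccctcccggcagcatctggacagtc
F10, chr8:13037158-13037307, plus strand: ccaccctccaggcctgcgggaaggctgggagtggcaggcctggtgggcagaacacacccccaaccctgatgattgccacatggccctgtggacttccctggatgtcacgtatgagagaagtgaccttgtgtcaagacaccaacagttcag
F5, chr1:164151685-164151834, plus strand: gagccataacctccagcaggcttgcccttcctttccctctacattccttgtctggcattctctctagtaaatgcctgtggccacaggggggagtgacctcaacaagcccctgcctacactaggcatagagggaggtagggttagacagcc
F13a1, chr13:37050245-37050394, minus strand: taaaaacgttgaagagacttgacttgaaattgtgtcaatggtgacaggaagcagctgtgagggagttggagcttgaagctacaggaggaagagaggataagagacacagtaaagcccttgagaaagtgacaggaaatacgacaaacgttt
Plaur, chr7:24462333-24462482, plus strand: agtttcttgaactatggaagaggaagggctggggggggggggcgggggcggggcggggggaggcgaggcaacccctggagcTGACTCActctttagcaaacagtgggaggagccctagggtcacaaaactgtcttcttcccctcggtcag

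Of the 8 genes, 6 had a promoter entry (not Thbs1 or Plau). Where a gene had 2 starts, the more upstream one is shown. The AP-1 motif, searched on both strands, was in the windows of Plaur and of the more upstream start of Serpinb2, and in 4.24% of the 32851 promoter windows of this length. The TATA motif TATAAA was in the windows of both Serpinb2 starts and in 7.57% of all windows. The PU.1 core GAGGAAGT, in 1.63% of all windows, was in none of the 6 genes' windows. A match describes letters in this window only.

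F7 encodes the protease that starts coagulation together with tissue factor. Its mRNA was high in AM and Ly6Clo and low in DC and Ly6Chi. AM had 344, 384, 568, 316 and 325 CPM in the hyperoxic libraries, and a lowest, median and highest of 315, 349.8 and 509 CPM in normoxia. Ly6Clo had 189, 211, 483, 220.3 and 322 CPM in hyperoxia, and 192, 240.5, 236, 287 and 262 CPM in normoxia. DC averaged 23.4 ± 11.7 CPM in hyperoxia and 16.3 ± 8.65 CPM in normoxia, and Ly6Chi averaged 9.58 ± 2.62 CPM in hyperoxia and 18.3 ± 16.8 CPM in normoxia (SD, n = 5 and 6). AM was 16.5-fold above DC in hyperoxia and 23.5-fold above DC in normoxia, and every AM and Ly6Clo library lay above every DC and Ly6Chi library. AM and Ly6Clo overlapped in hyperoxia and did not overlap in normoxia. In Ly6Chi normoxia the highest values, 41.4 and 38.3 CPM, were both from litter 100, while the other 4 libraries had 5.59 to 9.25 CPM.

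F10 encodes the protease that factor VIIa activates. Its mRNA was close in level in AM, Ly6Chi and Ly6Clo and lowest in DC. Ly6Chi had 283, 242, 426, 242 and 358 CPM in hyperoxia, and a lowest, median and highest of 256, 327 and 348 CPM in normoxia. AM averaged 226 ± 54.7 CPM in hyperoxia and 251 ± 50.9 CPM in normoxia (SD, n = 5 and 6). Ly6Clo averaged 296 ± 143 CPM in hyperoxia and 243 ± 41.1 CPM in normoxia (SD, n = 5 each). These 3 populations overlapped one another in both oxygen conditions. DC had 29.4, 30.1, 175, 60.1 and 143 CPM in hyperoxia, and a lowest, median and highest of 31.5, 40.9 and 63.5 CPM in normoxia. In normoxia no DC library reached the other populations, with Ly6Chi 6.80-fold and AM 5.41-fold above DC. In hyperoxia the DC library of litter 100, at 175 CPM, entered the ranges of AM and Ly6Clo, whose lowest libraries had 161 and 165 CPM, and the next DC library, at 143 CPM, did not.

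F5 encodes factor V, the precursor of the cofactor of factor Xa, and was high in Ly6Chi cells alone. The hyperoxic Ly6Chi libraries had 48.4, 49.6, 58.7, 43.3 and 57.6 CPM, and the normoxic ones a lowest, median and highest of 38.2, 54.7 and 80.6 CPM. In the other populations the mean was at most 2.17 CPM in hyperoxia and at most 3.73 CPM in normoxia, and the highest single library, a normoxic DC one, had 12.2 CPM. Ly6Chi was 23.8-fold above DC in hyperoxia and 15.3-fold above DC in normoxia, with no overlap. Annotated genes on the opposite strand overlap F5 (Gm16548), F13a1 (Gm30489) and Thbs1 (Gm29233), and the sources used here do not say whether counting used strand, so reads of each pair cannot be told apart.

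F13a1 encodes the A chain of factor XIII, the enzyme that crosslinks fibrin. It had its highest level in Ly6Chi, an intermediate one in Ly6Clo and DC, and was near 0 in AM. Ly6Chi had 973, 1017, 328, 855 and 566 CPM in hyperoxia, and a lowest, median and highest of 538, 899 and 1364 CPM in normoxia. Ly6Clo had 216, 132, 27.2, 103 and 17.5 CPM in hyperoxia, and 297, 382, 46.3, 53.3 and 63.6 CPM in normoxia. DC had 121, 51.6, 9.31, 67.9 and 16.5 CPM in hyperoxia, and a lowest, median and highest of 17.8, 102 and 169 CPM in normoxia. AM averaged 5.29 ± 7.76 CPM in hyperoxia and 7.51 ± 6.40 CPM in normoxia (SD, n = 5 and 6). Ly6Chi was 7.54-fold above Ly6Clo in hyperoxia and 5.53-fold above it in normoxia, with no overlap in either condition. Litters differed within groups: in normoxic Ly6Clo the litter 93 libraries had 297 and 382 CPM and the other 3 had 46.3 to 63.6 CPM. In DC the litter 100 libraries were the lowest of their group in both conditions, with 9.31 CPM in hyperoxia and 25.2 and 17.8 CPM in normoxia.

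Thbs1 encodes a matrix glycoprotein of platelet granules and macrophages that binds CD36 and CD47. Like F13a1, it was highest in Ly6Chi and lowest in AM. Ly6Chi had 812, 1027, 413, 765 and 545 CPM in hyperoxia, and a lowest, median and highest of 589, 793 and 957 CPM in normoxia. DC averaged 122 ± 25.4 CPM in hyperoxia and 109.9 ± 38.7 CPM in normoxia (SD, n = 5 and 6). Ly6Clo had 136, 84.8, 48.0, 28.6 and 36.6 CPM in hyperoxia, and 134, 146, 79.2, 81.1 and 46.2 CPM in normoxia. In AM a single hyperoxic library of litter 93 had 85.8 CPM, the other 4 had 7.63 to 23.3 CPM, and the normoxic libraries had a median of 12.1 CPM. Ly6Chi was 5.82-fold above DC in hyperoxia and 7.11-fold above DC in normoxia, and no Ly6Chi library overlapped another population.

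Platelets carry factor V, factor XIII A chain and thrombospondin 1, so platelet markers are set beside these 3 genes. The summed platelet list of 10 genes had its lowest median in Ly6Chi, the population highest in all 3 genes, with 14.1 to 77.6 CPM in hyperoxia and 9.04 to 70.9 CPM in normoxia. Its highest median was in Ly6Clo, with 159 to 559 CPM in hyperoxia and 90.6 to 386 CPM in normoxia. In DC it was 68.0 to 316 CPM in hyperoxia and 63.0 to 255 CPM in normoxia. In AM it was 75.9 to 259 CPM in hyperoxia and 17.3 to 72.8 CPM in normoxia, with no overlap, and the AM library with 85.8 CPM of Thbs1 had the highest sum, 259 CPM. Neutrophil markers were highest in Ly6Chi, with 1621 to 2098 CPM in hyperoxia and 1063 to 2197 CPM in normoxia, against at most 959 CPM in any other library. The part of platelets and neutrophils in these levels was not tested. Gp6 had no count in DC normoxia, AM hyperoxia, Ly6Chi normoxia and Ly6Clo normoxia, and Gp1bb had none in Ly6Clo normoxia. The 8 hepatocyte markers, of which 3 to 4 had counts in each group, summed to 8.57 to 22.8 CPM in AM hyperoxia and 12.5 to 20.3 CPM in AM normoxia, mostly Afp, and to 4.80 to 10.5 CPM in Ly6Clo hyperoxia and 4.21 to 8.64 CPM in Ly6Clo normoxia, the populations highest in F7. Of this list Ttr, Ahsg and Serpina1a had no count in any group, and Alb had counts in DC normoxia alone.

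Plaur encodes the receptor that holds urokinase at the cell surface, and was high in all 8 groups. AM had 748, 804, 692, 549.9 and 801 CPM in hyperoxia, and a lowest, median and highest of 333, 609.9 and 646 CPM in normoxia. Ly6Clo had 601, 662, 567, 563 and 879.8 CPM in hyperoxia, and 499.6, 546, 447, 564 and 656 CPM in normoxia. Ly6Chi had 551, 546, 519.9, 488 and 606 CPM in hyperoxia, and a lowest, median and highest of 450.4, 460.0 and 562 CPM in normoxia. These 3 populations overlapped one another in both conditions. DC had 243, 209.7, 437, 264 and 465 CPM in hyperoxia, and a lowest, median and highest of 143, 236 and 258 CPM in normoxia, below every library of the other populations within the same condition. AM was 2.22-fold above DC in hyperoxia and 2.54-fold above DC in normoxia.

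Plau, the urokinase gene, was low throughout. Its mean ran from 1.59 CPM in Ly6Chi to 11.1 CPM in Ly6Clo among the hyperoxic groups, and from 0.396 CPM in Ly6Chi to 5.25 CPM in DC among the normoxic groups. Only 11 counts were found over the 5 hyperoxic Ly6Chi libraries and 4 over the 6 normoxic ones. Neighbouring groups in the order of means overlapped throughout. In normoxia DC, at 1.60 to 11.3 CPM, did not overlap Ly6Chi, at 0 to 1.31 CPM. Every other pair of populations overlapped within a condition. The highest Plau value of each hyperoxic group was that of the litter 100 library, at 24.0 CPM in DC, 13.3 CPM in AM, 5.24 CPM in Ly6Chi and 19.2 CPM in Ly6Clo.

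Serpinb2, the gene of plasminogen activator inhibitor 2, was at or near 0 in most libraries and high in a few. One hyperoxic Ly6Clo library, that of litter 100, had 113 CPM (71 counts) and the other 4 had none. One normoxic DC library of litter 93 had 88.3 CPM, while the other 5 had at most 2.17 CPM. In AM, hyperoxic libraries had 28.1, 4.90, 11.4, 0 and 0 CPM, and the 6 normoxic libraries had no count, which allows a level of up to 0.405 CPM over their summed total (3 counts, counting error only). Annotated exons of Serpinb2 overlap those of Serpinb10 on the same strand, so its counts are uncertain where the pair overlaps. The marker list of large cavity macrophages, cells known for Serpinb2, shares Fn1 with the classical monocyte list. Its group medians ran from 449.6 CPM in normoxic DC to 987 CPM in normoxic Ly6Chi. In the normoxic DC library with the high value this list summed to 824 CPM, against 310.2 to 602 CPM in the other 5. In the hyperoxic Ly6Clo library it summed to 647 CPM, the lowest of its group. T and NK cell markers were the highest of the group in both, at 448 CPM in the hyperoxic Ly6Clo library (Il7r alone 443 CPM) and 173 CPM in the normoxic DC library. The part of any such cells in the Serpinb2 values was not tested.

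**Figure D1:**
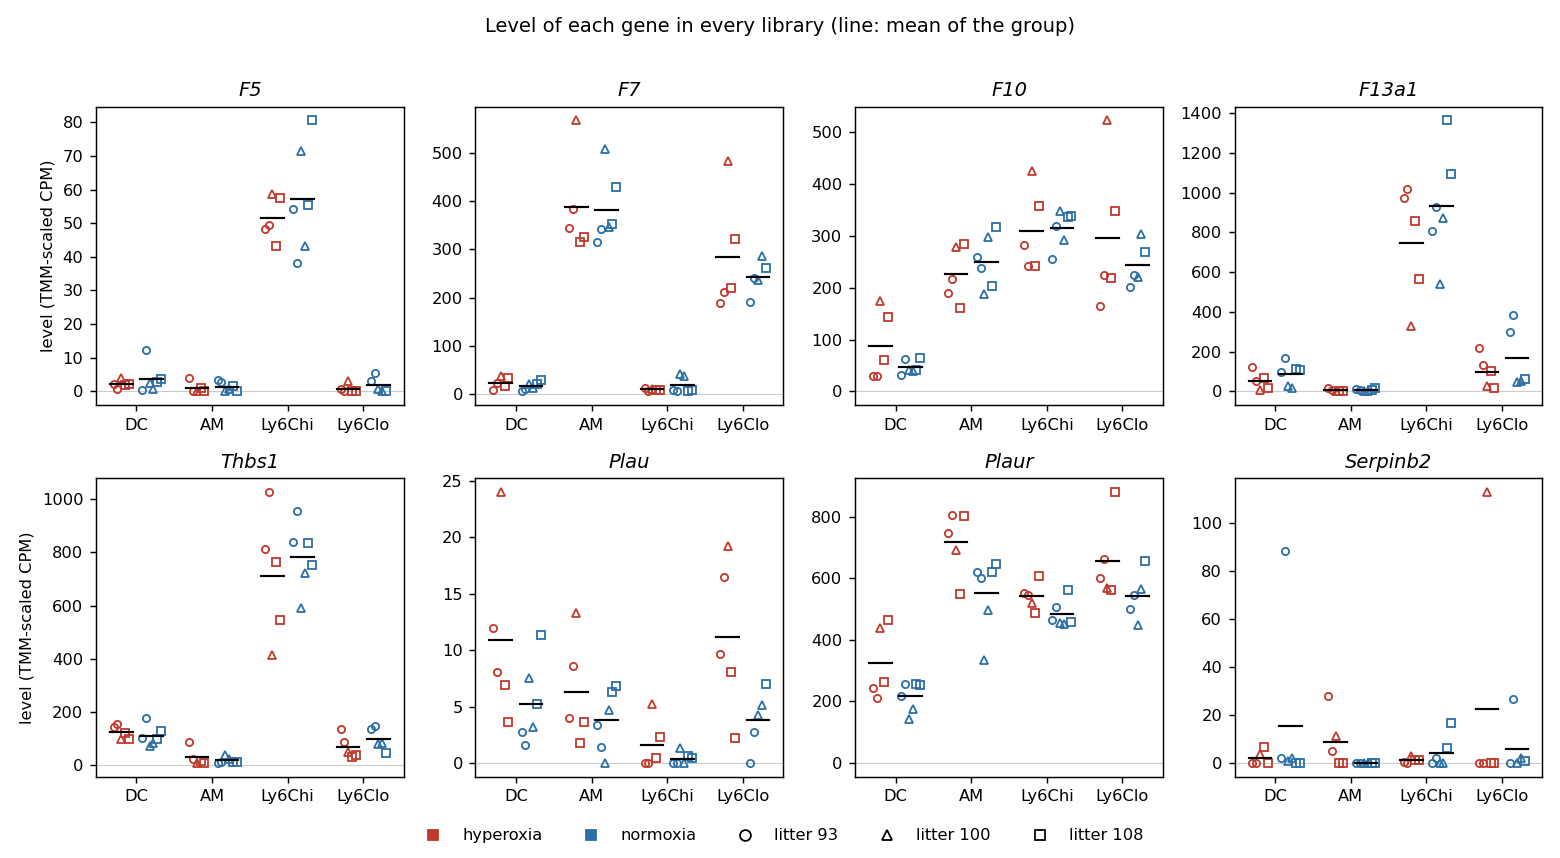
Level of each gene in every library, in TMM-scaled CPM on a linear axis, by population, with hyperoxia (red) left of normoxia (blue), litters by symbol and a line at each group mean. F5, F13a1 and Thbs1 are highest in Ly6Chi, F7 in AM and Ly6Clo, Plaur is high throughout, and Serpinb2 rests on single libraries such as the hyperoxic Ly6Clo one at 113 CPM.

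Per kilobase of exon, Plaur had the highest level of the 8 genes in AM, with 275 ± 40.2 CPM per kb in hyperoxia and 211 ± 45.5 CPM per kb in normoxia, followed by F7 with 208 ± 56.1 and 206 ± 39.3 CPM per kb (SD, n = 5 and 6). In Ly6Chi, Plaur had 207 ± 16.6 CPM per kb in hyperoxia and 184 ± 17.0 CPM per kb in normoxia. F10, F13a1 and Thbs1 followed in Ly6Chi with 113, 111 and 117 CPM per kb in hyperoxia, and 115, 138 and 129 CPM per kb in normoxia, while F5 had 6.93 CPM per kb in hyperoxia and 7.69 CPM per kb in normoxia. On the same scale Plau did not pass 4.69 CPM per kb in hyperoxia, in Ly6Clo, or 2.22 CPM per kb in normoxia, in DC.

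Hyperoxia was then compared with normoxia within each population by edgeR's quasi-likelihood test, with litter as a term and p-values adjusted over all genes tested. None of the 8 genes was called at an adjusted p under 0.05 in any population. In DC, 6 of the 8 genes passed the filter on low counts and 0 were called, against a background of 0% of 11274 genes. In AM, 4 were tested and 0 called, where 0.11% of 9986 genes were called. In Ly6Chi, 6 were tested and 0 called, against 0% of 10844 genes, and in Ly6Clo 5 were tested and 0 called, against 0% of 10188 genes. At an unadjusted p under 0.05 there were 2 of the 6 tested in DC (F13a1 and Plaur), beside 998 of all 11274 genes, and 1 of the 4 in AM (Plaur), beside 990 of 9986. There were 0 of the 6 in Ly6Chi, beside 591 of 10844, and 1 of the 5 in Ly6Clo (Thbs1), beside 540 of 10188. DESeq2 and limma voom called 0 of the 8 in each population. For each of the 8 genes in each population the hyperoxic and normoxic ranges overlapped. The share of all genes with such overlap is not given here, so this is a description only.

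F13a1 had the largest negative estimates. Its log2 fold change was -1.01 ± 0.38 in DC (SE, adjusted p = 0.543), -0.68 ± 0.41 in Ly6Clo (adjusted p = 0.86) and -0.47 ± 0.22 in Ly6Chi (adjusted p = 0.758), and it was too low to test in AM. Within litters, DC averaged 86.2 CPM in hyperoxia and 132 CPM in normoxia in litter 93, 9.31 and 21.5 CPM in litter 100, and 42.2 and 112 CPM in litter 108. In Ly6Clo the mean was also lower in hyperoxia in 3 of 3 litters, with log2 differences of -0.99 to -0.57. In Ly6Chi, litter 93 ran the other way, with 995 CPM in hyperoxia and 866 CPM in normoxia. Without the litter 100 hyperoxic library the estimates were -0.99 ± 0.44 in DC, -0.66 ± 0.55 in Ly6Clo and -0.30 ± 0.24 in Ly6Chi.

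Plaur had positive estimates in all 4 populations. Its log2 fold change was 0.55 ± 0.23 in DC (SE, adjusted p = 0.546), 0.34 ± 0.14 in AM (adjusted p = 0.42), 0.17 ± 0.09 in Ly6Chi (adjusted p = 0.758) and 0.22 ± 0.16 in Ly6Clo (adjusted p = 0.86). The mean was higher in hyperoxia in 3 of 3 litters in AM, Ly6Chi and Ly6Clo and in 2 of 3 litters in DC, with within-litter differences on the log2 scale of 0.07 to 0.76 in AM, 0.10 to 0.20 in Ly6Chi, 0.10 to 0.27 in Ly6Clo and -0.07 to 1.46 in DC. In DC the estimate was 0.22 ± 0.17 without the litter 100 hyperoxic library, against 0.55 with it. Plau, tested in DC alone, had an estimate of 1.07 ± 0.51 (adjusted p = 0.566), and 0.59 ± 0.60 without that library.

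F7 and F10 had positive estimates in DC and Ly6Clo. They turned sign in Ly6Clo without the litter 100 hyperoxic library, and in DC they were smaller without it. In DC the log2 fold change of F10 was 0.76 ± 0.46 (SE, adjusted p = 0.646) with it and 0.21 ± 0.39 without it, and that of F7 was 0.62 ± 0.32 (adjusted p = 0.586) with it and 0.39 ± 0.38 without it. In Ly6Clo, F10 was 0.29 ± 0.22 with it and -0.04 ± 0.20 without it, and F7 was 0.25 ± 0.20 with it and -0.05 ± 0.17 without it. In AM, F7 was 0.05 ± 0.14 and F10 -0.15 ± 0.18, and in Ly6Chi they were -0.18 ± 0.40 and 0.00 ± 0.13. The Ly6Chi estimate of F7 was 0.26 ± 0.35 without the litter 100 hyperoxic library, and the within-litter log2 differences were 0.26 in litter 93, -1.73 in litter 100 and 0.22 in litter 108. The litter 100 library held the highest hyperoxic F7 value in 3 of 4 populations and the highest hyperoxic F10 value in 3 of 4. These libraries also had the highest summed T and NK cell markers and erythroid markers of their groups. In AM and Ly6Clo the T and NK sum was mostly Il7r, at 244 of 292 CPM and 443 of 448 CPM. The part of any such cells in these values was not tested.

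Thbs1 had an estimate of -0.47 ± 0.20 in Ly6Clo (SE, adjusted p = 0.86), where its mean was lower in hyperoxia in 3 of 3 litters, with log2 differences of -0.73 to -0.39. It was 0.10 ± 0.15 in DC and -0.23 ± 0.14 in Ly6Chi. In AM it was 0.72 ± 0.63, with the litters at 2.16 (litter 93), -1.86 (litter 100) and 0.01 (litter 108) on the log2 scale, and -0.58 ± 0.62 once litter 93 was left out. F5, testable in Ly6Chi alone, had an estimate of -0.12 ± 0.21 (adjusted p = 0.903). Serpinb2 was too low to test in each population.

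**Figure D2:**
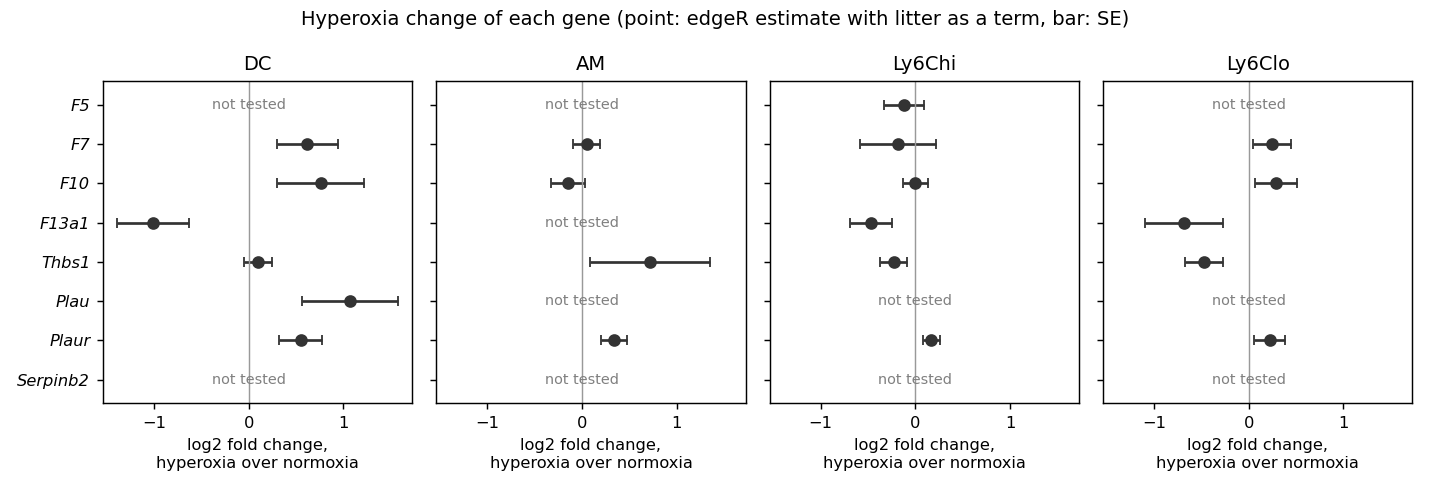
Log2 fold change of each gene, hyperoxia over normoxia, in the 4 populations, as estimated by edgeR with litter as a term (bars are SE; genes too low to test are marked). F13a1 lies at -1.01 in DC, -0.47 in Ly6Chi and -0.68 in Ly6Clo, and Plaur lies above 0 in every panel, with no estimate called.

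**Figure D3:**
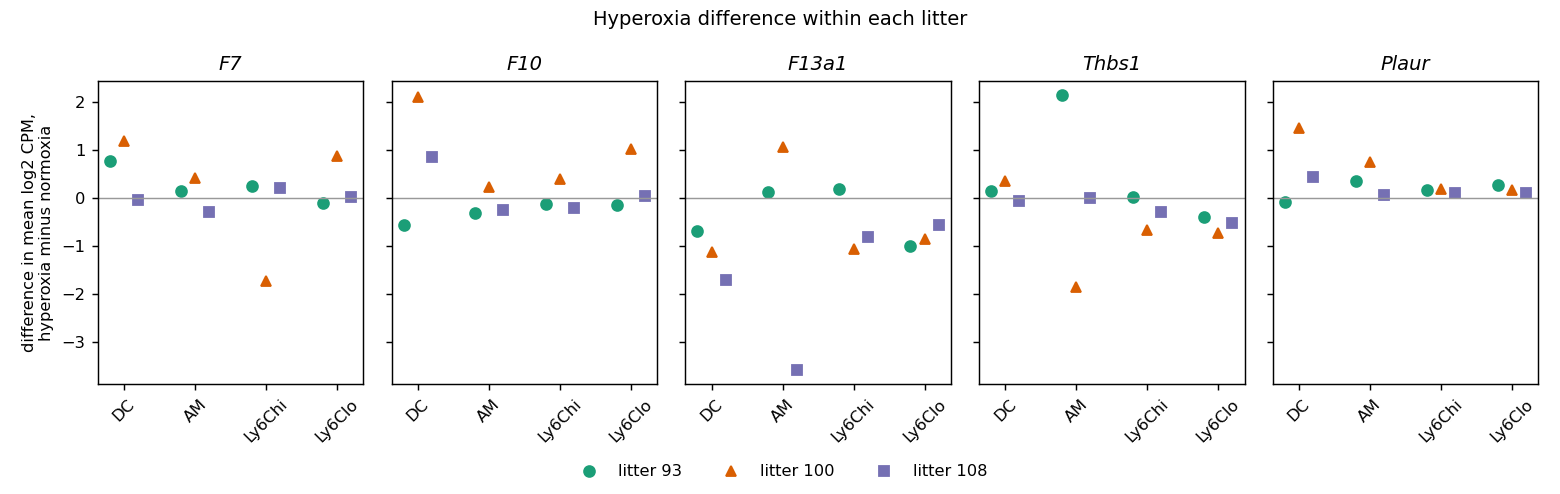
Difference in mean log2 CPM, hyperoxia minus normoxia, within each litter, for 5 of the genes in the 4 populations. Litter 100 holds the highest F10 point in every population, at 2.12 in DC, and the 3 litters lie on the same side of 0 for F13a1 in DC and Ly6Clo, Thbs1 in Ly6Clo, and Plaur in AM, Ly6Chi and Ly6Clo.

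Whether the hyperoxia change differed between populations was tested with the 3 interaction terms in 1 fit over all 43 libraries. All 8 genes were tested and 0 were called, each at an adjusted p of 1, against a background of 0% of 12529 genes. Unadjusted, 0 of the 8 and 617 of all genes were under 0.05. The calls depended on the filter. With every gene that had a count kept, edgeR called F10, F13a1 and Plaur in DC (adjusted p = 0.00431, 1e-05 and 0.000282), F13a1 in Ly6Chi (adjusted p = 0.0105) and Serpinb2 in AM (adjusted p = 0.00178), with log2 fold changes of 0.75, -1.01 and 0.55 in DC and -0.48 in Ly6Chi. In the same setting the interaction was called for F10, Thbs1 and Serpinb2 (adjusted p = 0.0179, 0.0112 and 8.82e-13), beside 524 of the 23846 genes with a count. Serpinb2 had 113 CPM in 1 hyperoxic Ly6Clo library with the other 4 at 0, and up to 88.3 CPM in normoxic DC. In that setting 369 genes were called in DC, 325 in AM, 235 in Ly6Chi and 173 in Ly6Clo. The number tested in each population is not given here.

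The other genes of the pathway came from 7 lists of 51 genes, of which 49 were in the table. In the hyperoxia comparisons 24 were tested in DC, 21 in AM, 22 in Ly6Chi and 19 in Ly6Clo, and 0 were called in each. Their median log2 fold change was 0.04 in DC, 0.25 in AM, -0.04 in Ly6Chi and 0.06 in Ly6Clo, where the median over all genes tested was 0 in DC and -0.01 in the other 3. The fibrinogen chain genes Fga and Fgb, the factor XIII B chain gene F13b, the plasminogen gene Plg and Serpina10 had no count in 43 libraries, which allows up to 0.0446 CPM over the summed total. Tissue factor (F3), the partner of factor VIIa, was chosen after its values were seen. Its group medians were 1.13 to 4.84 CPM in hyperoxia and 2.70 to 13.3 CPM in normoxia, and each group mean lay above its median. In hyperoxia the highest AM library had 33.3 CPM (mean 9.14 CPM). The highest hyperoxic libraries of DC and Ly6Chi lay above it, with 41.4 CPM in Ly6Chi, and the hyperoxic DC mean was 10.5 CPM. In normoxia the highest AM library had 47.6 CPM (mean 15.7 CPM). The highest normoxic mean and median were those of Ly6Chi, at 17.2 and 13.3 CPM. In Ly6Clo normoxia the highest library had 8.42 CPM, with a median of 3.49 CPM.

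In normoxia each population was set against the other 3, averaged, and 26 of the 51 pathway genes were tested. Their median log2 fold change was -0.41 in DC, 0.45 in AM, -0.34 in Ly6Chi and 0.22 in Ly6Clo, beside 0.03, -0.04, 0.03 and 0.02 over all genes tested. AM had 12 called higher and 2 lower, where 50.6% of 11979 genes were called, 23.6% higher and 26.9% lower. The largest were Tgm2, a tissue transglutaminase, with a log2 difference of 2.15 ± 0.18 (SE, adjusted p = 2.16e-10), Vkorc1l1, a vitamin K reductase, at 1.76 ± 0.22, Vwf, the platelet-binding protein of endothelium, at 1.65 ± 0.30, Thbd (thrombomodulin) at 1.42 ± 0.22, and the serpin gene Serpinb8 at -2.61 ± 0.58. Endothelial markers summed to 158 to 1035 CPM in AM normoxia and 78.7 to 740.2 CPM in the other normoxic groups. Their normoxic medians were 211, 424, 524 and 221 CPM in DC, AM, Ly6Chi and Ly6Clo. In the same order Vwf averaged 36.0, 107, 18.0 and 62.6 CPM, and Thbd 11.2, 67.7, 47.7 and 27.1 CPM. The part of endothelial cells in the Vwf and Thbd values was not tested.

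Ly6Chi had 2 of the 26 called higher and 13 lower, where 43.6% of all genes were called, 24.2% higher and 19.4% lower. Those furthest from 0 were F9 (factor IX) at -2.31 ± 0.61 (SE, adjusted p = 0.00235), Tgm2 at -2.30 ± 0.22, F2rl2 at -2.30 ± 0.71, Vwf at -2.02 ± 0.38 and Cd36, a thrombospondin receptor, at -1.71 ± 0.20. Cd36 averaged 225 CPM in Ly6Chi normoxia and 507 to 1028 CPM in the other normoxic groups, while Thbs1 was highest in Ly6Chi. F2rl2 averaged 1.42 CPM in Ly6Chi normoxia, near AM (2.10 CPM) and Ly6Clo (1.58 CPM), while DC, part of the averaged comparator, had 115 CPM. F9 had 11 counts in Ly6Chi normoxia, with 3 of 6 libraries at 0. F2rl2 lost its call in Ly6Chi without litter 100 (adjusted p = 0.211), without litter 108 (adjusted p = 0.0543) or without 1 AM library, replicate 1 (adjusted p = 0.0764).

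DC had 4 of the 26 called higher and 11 lower, where 33.8% of all genes were called, 18.9% higher and 14.9% lower. F2rl2, which encodes protease-activated receptor 3, a thrombin receptor, was higher with a log2 difference of 6.01 ± 0.42 (SE, adjusted p = 1.01e-10), with a mean of 115 CPM in DC normoxia and at most 2.10 CPM in the other normoxic groups. Serpinb8 at 2.01 ± 0.41, Procr (the protein C receptor) at 1.78 ± 0.44 and F9 at 1.34 ± 0.48 were also higher, and Thbd was lower at -1.98 ± 0.27. The call of F9 was lost without the litter term (adjusted p = 0.0676), without litter 100 (0.242), without DC replicate 3 (0.0519) or 4 (0.0823), and in limma voom (0.0578). F9 had means of 5.74 CPM in DC normoxia and 0.904 to 3.98 CPM in the other normoxic groups.

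Ly6Clo had 8 of the 26 called higher and 0 lower, where 12% of all genes were called, 8.51% higher and 3.51% lower. They were led by Tgm2 at 1.23 ± 0.19 (SE, adjusted p = 4.84e-05), Serpinb6a at 1.03 ± 0.13, the plasminogen receptor gene Plgrkt at 0.91 ± 0.09, Furin, a protease that trims factor precursors, at 0.71 ± 0.21, and Pros1 (protein S) at 0.64 ± 0.17. Furin lost its call without litter 93 (adjusted p = 0.115), litter 108 (0.0772) or Ly6Clo replicate 1 (0.0522), and Pros1 without the litter term (0.186), litter 100 (0.0618) or Ly6Clo replicate 4 (0.0839). Plgrkt was called in all 4 comparisons, higher in AM (0.97 ± 0.08) and Ly6Clo and lower in DC (-0.74 ± 0.09) and Ly6Chi (-1.14 ± 0.09).

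**Figure D4:**
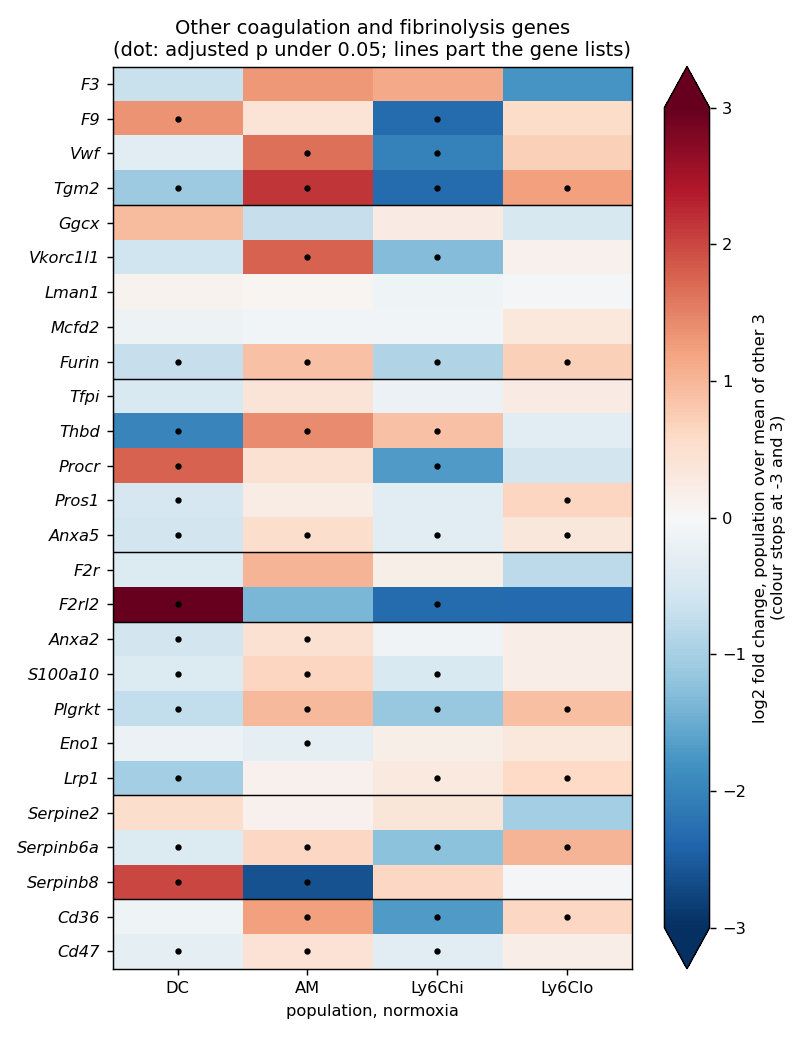
Log2 fold change of the 26 tested pathway genes in normoxia, each population over the mean of the other 3, with the colour stopping at -3 and 3 and a dot at an adjusted p under 0.05. AM has 12 genes called higher, Ly6Chi 13 called lower, and F2rl2 stands at 6.01 in DC.

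The genes whose levels ran most like each member were named from 8378 genes with a mean of at least 4 log2 CPM, by Pearson's r of log2 CPM over 43 libraries, which share populations and depth. F7 ran most like Abcg1, Bhlhe41 and Tcf7l2 (r = 0.96 each). F13a1 ran most like Lilra6, Cd300lb and Clec4a1 (r = 0.92, 0.91 and 0.89) and Thbs1 like Pik3cd, Lilra6 and Socs6 (r = 0.93, 0.92 and 0.92). Plaur ran most like Mpp1, Bst1 and Aifm2 (r = 0.93, 0.93 and 0.92), F10 like Fpr2, Gda and Mgst1 (r = 0.89, 0.89 and 0.88), and F5 like Lbr, Rab27a and Fam111a (r = 0.87, 0.87 and 0.85). For Plau the highest r was 0.74, with Scimp, and for Serpinb2 it was 0.50, with Prpf6.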

How the data were processed

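Libraries were SMART-Seq v4 and Nextera XT preparations of sorted cells, per the labels' protocols. The submitters' processing notes name TopHat, HTSeq 0.4.1, FastQC, Picard, SAMtools and the build NCBIM37, with no role or order, and strandedness is not given in the sources used here. The deposited table holds raw counts per Ensembl gene for 43 libraries, and genes without a symbol held 0.828% of counts. Symbols and exonic lengths came from GENCODE M21, a later build. Its exon coordinates gave these lengths and the genes said to overlap members. Whether these overlaps hold in the annotation used for counting is not shown here. From the counts, TMM-scaled CPM and edgeR 4.0.16 quasi-likelihood tests were computed in R 4.3.3 (filterByExpr set to 10 for min.count and 15 for min.total.count, litter as an additive term, Benjamini-Hochberg over all genes tested, called at an adjusted p under 0.05). Alternatives used DESeq2 1.42.0 and limma 3.58.1. Tables and figures used Python 3.11.15, pandas 2.3.3, numpy 2.4.6 and matplotlib 3.10.9.

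The members, gene lists and tests were chosen with earlier results of these data known. The text names the 8 genes, any pathway gene called in a hyperoxia comparison, up to 5 called pathway genes with the largest absolute log2 fold change per population in normoxia, and the 3 genes most correlated with each member. The limit given for a count of 0 is 3 counts of the summed total and covers counting error only. Replicate numbers follow accession order and were not used to pair libraries. Libraries have no molecular identifiers mentioned in the labels.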

Additional observations from a re-analysis of the deposited data

Results flagged for a closer look

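Of 63 groups of levels (8 genes in 8 groups, leaving out the one in which every library was at 0), 10 had a library whose gap to the next one was large for the range of the group, and for normally spread values chance gives about 1 in 20, a rate that need not hold for counts near 0 such as those of F5 outside Ly6Chi and of Serpinb2. F5 was set apart in 3 groups: 12.2 CPM in a normoxic DC library of litter 93 (replicate 2), against 0.543 to 3.62 CPM in the others, 4.02 CPM in a hyperoxic AM library of litter 93 (replicate 1), and 3.20 CPM in the hyperoxic Ly6Clo library of litter 100. F7 was 568 CPM in the hyperoxic AM library of litter 100, against 316 to 384 CPM in the others. The hyperoxic AM library with high F5 (replicate 1) also had 18.8 CPM of F13a1, against 0 to 4.90 CPM, and 85.8 CPM of Thbs1, against 7.63 to 23.3 CPM. Its platelet markers summed to 259 CPM, against 75.9 to 97.2 CPM in the other 4, and their part in these values was not tested.

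Serpinb2 was set apart in 4 groups, at 113 CPM in the hyperoxic Ly6Clo library of litter 100, 88.3 CPM in normoxic DC replicate 2, 26.6 CPM in normoxic Ly6Clo replicate 2 and 16.7 CPM in normoxic Ly6Chi replicate 6. The markers of large cavity macrophages summed to 824 CPM in that normoxic DC library and 1185 CPM in that normoxic Ly6Clo library, the highest of each group, but to 647 CPM in the hyperoxic Ly6Clo library, the lowest of its group, and to 1078 CPM in the normoxic Ly6Chi library, below the 1092 CPM of another. T and NK cell markers were the highest of their group in the hyperoxic Ly6Clo library (448 CPM, of which Il7r was 443 CPM), the normoxic DC library (173 CPM) and the normoxic Ly6Clo library (295 CPM). In the normoxic Ly6Chi library they summed to 10.1 CPM, below the 77.3 CPM of another. Their part in these values was not tested.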

How the results depend on the processing

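No paired analysis was possible because replicate numbers follow accession order and the labels tie no library to a pup. Litter was a term instead, and the sharing of markers by replicate number across populations was not modelled. Levels of the 8 genes moved by less than 1 SD in 192 of 192 comparisons with another scaling, corrected counts or larger libraries only. Without the filter on low counts, 369, 325, 235 and 173 genes were called in DC, AM, Ly6Chi and Ly6Clo and 524 in the interaction, with 3, 1, 1 and 0 of the 8 genes and 3 in the interaction. Of the other pathway genes it called 1 in Ly6Clo (Procr) and 1 in the interaction (Cd36), and in normoxia 7 higher in DC, 5 higher in Ly6Chi and 2 lower in Ly6Clo. DESeq2 called 24, 111, 5 and 1 genes, with 1 other pathway gene, Vwf, in AM. Without litter 93 there were 2 in DC, 0 in AM and 1 in Ly6Chi, and in normoxia 2562 in DC and 861 in Ly6Clo, with 7 pathway genes lower in DC and 0 higher in Ly6Chi. Without litter 108 there were 5 in AM and, in normoxia, 922 in Ly6Clo. AM had 0 without libraries under 1000000 counts and 0 with detected genes as a covariate. The count of pathway genes lower in AM was 1 with RLE factors, without the litter term, without litter 100, without litter 108 and without small libraries. The count higher in Ly6Chi was 1 with RLE factors, without the litter term and without litter 100, and the count lower in Ly6Clo was 1 without the litter term and without litter 100. Leaving out 1 library at a time gave 0 to 23 genes in DC, 5 to 39 in AM, 0 to 1 in Ly6Clo and 0 to 5 in the interaction, with 1 to 2 pathway genes lower in AM, 1 to 2 higher in Ly6Chi and 0 to 1 lower in Ly6Clo; leave-one-out in the normoxia and interaction comparisons was chosen after seeing the data. The cause of these moves was not tested.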
